A study of Mus musculus with 6 samples.

Results

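Transcripts of cholesterol synthesis, control, transport and efflux were compared between mouse bone marrow cells bearing the oncogene MLL-AF9, without and with Mn1. The genes were named as a list of 28, made of 18 enzymes of synthesis, 5 genes that control the sterol-responsive transcription factors SREBP1 and SREBP2, the sterol carrier gene Stard4, and 4 genes of the oxysterol receptors LXR and of efflux. Of these, 26 had an array probe set annotated to that gene alone, out of 18193 genes so measured on the array, and each was read from its brightest probe set over all 6 arrays. Acat2, a cytosolic thiolase at the start of the pathway, and Nr1h2, which encodes LXR beta, had none and are not analysed here.

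Per the labels and the series' design text, the cells were Mn1null (n = 3), which carried the leukaemia fusion oncogene MLL-AF9 and had lost Mn1 through CRISPR-Cas9, and Mn1wt (n = 3), which carried MLL-AF9 with Mn1 intact. Mn1 codes for a cofactor of transcription, and the comparison asks which transcripts differ without it. All 6 samples were sorted, bore an EGFP control vector and grew in DMEM with fetal calf serum, mouse interleukin 3, human interleukin 6 and mouse stem cell factor. The labels give no animal age or sex, do not say whether a group was a clone, and do not say that replicates were separate cultures, so a p-value speaks only of how far these 6 samples scatter, which may be technical scatter.

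Cells make cholesterol from acetyl-CoA through mevalonate, farnesyl diphosphate, squalene and lanosterol. When membrane sterol is low, the escort protein SCAP carries SREBP2 out of the endoplasmic reticulum for cleavage, and the released factor switches on the enzymes of synthesis, often beside the factor NF-Y, which binds the letters CCAAT. When sterol is plentiful, the INSIG proteins hold SCAP back, and oxysterols activate LXR, which in macrophages raises the exporters ABCA1 and ABCG1.

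Because SREBP2 and NF-Y act close to the start of these genes, the sequence there is shown for 6 of the genes described next. Promoter windows of 300 bases (250 before and 50 after the gene start, RefSeq, GRCm38.p6) were found for 23 of the 28 genes, and not for Fdps, Fdft1, Sqle, Stard4 and Abcg1. Hmgcs1 and Nsdhl are given because they held a sterol element like sequence, Msmo1 and Insig1 as genes with a large rise, Idi1 as a gene that did not pass the test, and Ebp as the enzyme gene that fell. Each is written 5′ to 3′ along the gene's strand, with matches on either strand to CCAAT and to a longer sterol element motif in capitals.
Hmgcs1 (chr13:119690101-119690400, plus strand): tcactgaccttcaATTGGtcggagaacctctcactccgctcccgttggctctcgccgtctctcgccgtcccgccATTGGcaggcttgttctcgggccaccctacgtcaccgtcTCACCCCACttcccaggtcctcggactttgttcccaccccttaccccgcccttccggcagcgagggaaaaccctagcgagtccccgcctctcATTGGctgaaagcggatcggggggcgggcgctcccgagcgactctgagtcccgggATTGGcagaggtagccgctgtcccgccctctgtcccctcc
Nsdhl (chrX:72918271-72918570, plus strand): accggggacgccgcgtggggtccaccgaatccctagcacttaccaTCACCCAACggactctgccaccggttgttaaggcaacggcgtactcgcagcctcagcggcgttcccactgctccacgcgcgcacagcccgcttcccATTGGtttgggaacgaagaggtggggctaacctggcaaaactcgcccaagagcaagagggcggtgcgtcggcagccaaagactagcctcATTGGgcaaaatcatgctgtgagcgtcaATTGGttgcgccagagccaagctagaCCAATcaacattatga
Msmo1 (chr8:64733529-64733828, minus strand): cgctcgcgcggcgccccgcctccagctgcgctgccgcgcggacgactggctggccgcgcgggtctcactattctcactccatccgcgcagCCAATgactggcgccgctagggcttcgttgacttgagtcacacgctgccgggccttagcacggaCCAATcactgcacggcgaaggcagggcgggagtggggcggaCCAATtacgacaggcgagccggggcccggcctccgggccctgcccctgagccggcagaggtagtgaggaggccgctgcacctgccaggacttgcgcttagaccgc
Insig1 (chr5:28071162-28071461, plus strand): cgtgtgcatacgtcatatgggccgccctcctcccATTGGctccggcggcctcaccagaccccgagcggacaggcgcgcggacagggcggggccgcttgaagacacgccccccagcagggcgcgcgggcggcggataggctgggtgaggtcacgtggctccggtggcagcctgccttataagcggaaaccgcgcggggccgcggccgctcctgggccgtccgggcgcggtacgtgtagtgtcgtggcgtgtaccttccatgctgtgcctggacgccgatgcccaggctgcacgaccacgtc
Idi1 (chr13:8885356-8885655, plus strand): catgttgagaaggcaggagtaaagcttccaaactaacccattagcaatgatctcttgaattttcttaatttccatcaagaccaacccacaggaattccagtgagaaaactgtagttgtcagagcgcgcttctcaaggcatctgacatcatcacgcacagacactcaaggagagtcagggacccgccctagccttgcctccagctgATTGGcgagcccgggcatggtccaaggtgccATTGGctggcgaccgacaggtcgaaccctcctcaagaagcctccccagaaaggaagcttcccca
Ebp (chrX:8193463-8193762, minus strand): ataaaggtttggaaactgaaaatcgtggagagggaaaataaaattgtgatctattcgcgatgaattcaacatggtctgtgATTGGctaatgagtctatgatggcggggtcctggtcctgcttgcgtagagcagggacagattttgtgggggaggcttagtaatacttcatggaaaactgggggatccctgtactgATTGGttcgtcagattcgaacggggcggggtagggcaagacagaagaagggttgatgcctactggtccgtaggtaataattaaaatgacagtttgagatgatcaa

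The letters TCACNCNAC, a loose form of the sterol regulatory element, stood on either strand in 2 of the 23 genes. The match was TCACCCCAC in Hmgcs1, starting 137 bases before the gene start, and TCACCCAAC in Nsdhl, starting 205 bases before it. These 2 genes are 8.7% of the 23, against 3.38% of 11790 tested genes with a window and 2.7% of all 32851 windows. CCAAT stood on either strand in 18 of the 23 genes (78.3%), against 42.3% of 11790 tested genes with a window and 37.4% of all windows, and the 2 motifs share no letters in these windows. Abca1, Acat2, Nr1h2, Nr1h3 and Scap were the 5 genes without it. The Ebp and Idi1 windows, shown above, held 2 matches each, and the Insig1 window held 1. A match describes the letters only, and binding was not measured.

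Genes of cholesterol synthesis and of its control were mostly higher in Mn1null. Of the 26 genes, 16 rose and 2 fell at an adjusted p of 0.05 (limma, fitted to and adjusted over 14680 genes), and 8 did not pass. Among the 16, Stard4 rose only on the brightest of its 3 probe sets. Over all genes tested, 23.2% were called higher and 25.6% lower. The median difference of the 26 genes was 0.28 (log2, Mn1null minus Mn1wt), a 1.21-fold difference, against -0.0053 over all genes tested. The 3 Mn1null values lay all above the 3 Mn1wt values for 18 of the 26 genes, as they did for 27.6% of all genes, and all below for 2, as for 30.1% of all genes (without overlap either way, 57.7% of all genes). All 26 genes passed the filter on low signal, a mean log2 of 4.07. In a sample of many cells, fewer cells that express a gene and less of its RNA per cell cannot be told apart.

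Measures of the whole arrays moved with the groups as well. Across the genes tested, 48.8% were called in either direction. The 5′ probe sets of bacterial labelling controls averaged 6.47 ± 0.059 in Mn1null and 7.32 ± 0.10 in Mn1wt (SD, n = 3 each), a difference of -0.85, while their middle and 3′ probe sets differed by -0.49 and -0.30 and hybridisation controls by -0.09. In messenger RNA controls the 3′ minus 5′ signal is a sign of RNA quality. For pyruvate carboxylase it was 0.97 ± 0.065 in Mn1null and 0.48 ± 0.062 in Mn1wt (SD, n = 3 each). For 18S RNA, which is not a messenger RNA, it was -0.96 ± 0.045 in Mn1null and -1.22 ± 0.032 in Mn1wt (SD, n = 3 each). For the controls of Gapdh, beta actin and the transferrin receptor it differed by 0.03, -0.01 and 0.09, with groups that overlapped. Of 8 markers of blood and myeloid progenitor cells, 8 lay above the median of all probe sets, 4 were higher (Itgam by 0.84, Cd34 by 0.79, Mpo by 0.28 and Spi1 by 0.19) and 2 lower (Csf1r, -1.50, and Kit, -0.17), with array means of 10.64 to 10.69 in Mn1null and 10.55 to 10.62 in Mn1wt. Of 8 mast cell markers 5 were higher and 0 lower, with array means of 8.08 to 8.12 in Mn1null and 6.32 to 6.37 in Mn1wt. The protease gene Cpa3 averaged 12.32 in Mn1null and 8.19 in Mn1wt, whereas the protease genes Mcpt4 (3.80 in Mn1null and 3.54 in Mn1wt) and Cma1 (4.22 in Mn1null and 4.37 in Mn1wt) lay near or under the filter in both groups. Of 7 macrophage markers 1 was higher and 3 lower, with array means of 4.67 to 4.77 in Mn1null and 5.10 to 5.24 in Mn1wt. Of 8 stroma and endothelium markers 2 were higher (Pecam1 by 1.78 and Pdgfrb by 1.76) and 1 lower, with array means of 5.342 to 5.423 in Mn1null and 5.0004 to 5.022 in Mn1wt. Of 3 measured erythroid markers 1 was higher (Klf1 by 1.07), with array means of 5.16 to 5.32 in Mn1null and 4.79 to 4.90 in Mn1wt. Of 3 measured B cell markers 1 was lower (Cd79b, -0.91), with array means of 4.58 to 4.88 in Mn1null and 4.91 to 5.11 in Mn1wt. Of 3 measured T cell markers Cd3e and Cd3d were tested and did not pass (adjusted p = 0.243 and 0.725, limma), with array means of 4.443 to 4.6004 in Mn1null and 4.363 to 4.546 in Mn1wt. The markers named here were chosen after their values were seen. The part of these differences in those of the cholesterol genes was not tested. The Mn1 probe set had 4.13 ± 0.071 in Mn1null and 4.35 ± 0.20 in Mn1wt (SD, n = 3 each) and did not pass (adjusted p = 0.121, limma), except without Mn1wt replicate 2 (-0.33, adjusted p = 0.00727). Both means lay near the filter level of 4.07, so this probe set says little about Mn1 in either group. Where the probe set lies relative to the deletion was not analysed here.

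**Figure D1:**
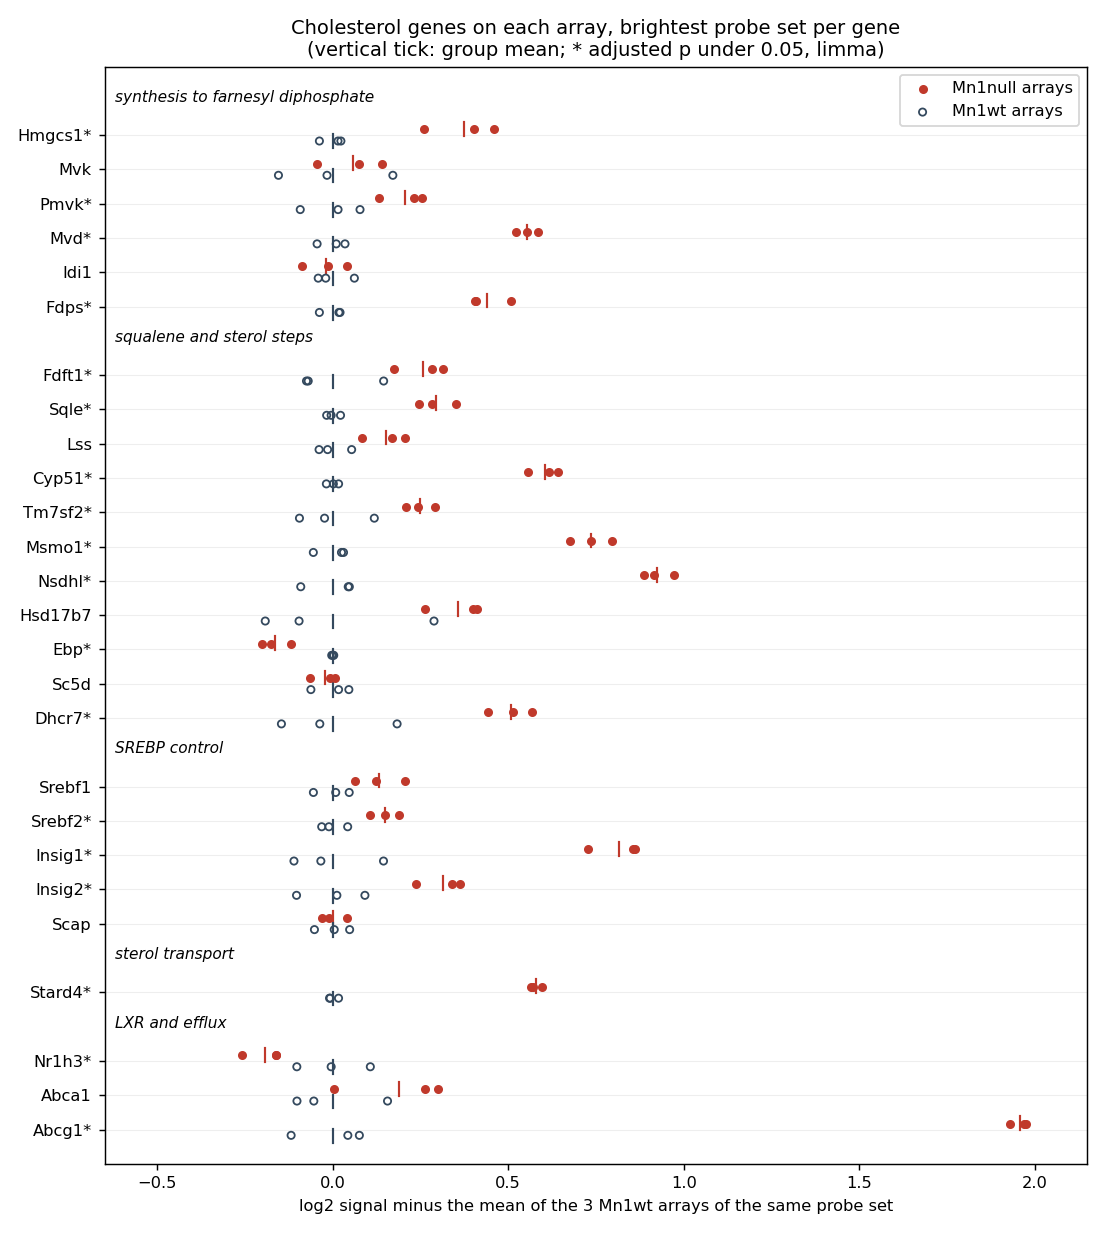
Log2 signal of the 26 genes on each array, as the difference from the Mn1wt mean of the same probe set, with Mn1null arrays filled and Mn1wt arrays open. Vertical ticks are group means of 3 arrays and stars mark an adjusted p under 0.05 in limma; most filled points lie right of the open ones, farthest for Abcg1 at 1.96, while those of Ebp and Nr1h3 lie left.

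**Figure D2:**
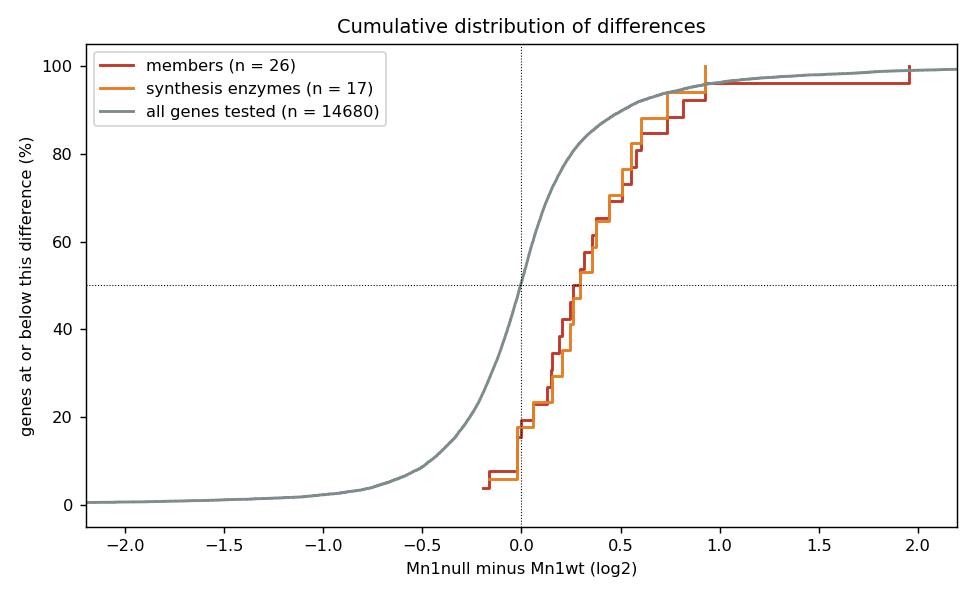
Share of genes (%) at or below each difference (log2, Mn1null minus Mn1wt) for the 26 genes, the 17 enzymes among them and all 14680 genes tested. The curves of the 26 genes and of the enzymes lie right of that of all genes through their middle, crossing 50% at 0.28 and 0.29 against -0.0053.

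The enzymes that lead from acetyl-CoA to farnesyl diphosphate rose in 4 of 6 genes, and 0 fell (limma; 0 also at an unadjusted p under 0.05). The shares over all genes were 23.2% higher and 25.6% lower. Hmgcs1, which makes hydroxymethylglutaryl-CoA, had log2 signals of 11.04, 10.98 and 10.84 in Mn1null, against 10.54, 10.60 and 10.59 in Mn1wt. Every Mn1null array was above every Mn1wt array, and the difference was 0.37 ± 0.062 (SE; adjusted p = 0.00216, limma). Its probe set carries the suffix for probes that may match other transcripts. A probe set without that suffix gave 0.40 and another gave 0.51, while a further one gave 0.19 and did not pass (adjusted p = 0.0913, limma over 31526 probe sets).

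Mvd, which decarboxylates mevalonate diphosphate into the isoprenoid building block, had signals of 9.09, 9.06 and 9.12 in Mn1null, against 8.49, 8.55 and 8.57 in Mn1wt. The groups stood apart by 0.55 ± 0.046 (SE; adjusted p = 8.02e-05, limma), and the other probe set gave 0.65. Fdps, the farnesyl diphosphate synthase, had 12.01, 12.02 and 12.11 in Mn1null, against 11.62, 11.63 and 11.57 in Mn1wt. Here too the groups did not overlap, at 0.44 ± 0.050 (SE; adjusted p = 3.21e-04, limma). Pmvk, phosphomevalonate kinase, rose less, by 0.21 ± 0.062 (SE; adjusted p = 0.0301, limma). That call was lost without Mn1wt replicate 1 (adjusted p = 0.0660), Mn1wt replicate 2 (0.0871), Mn1null replicate 1 (0.0875) or Mn1null replicate 3 (0.0911), and with median centring (0.0621).

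The other 2 genes of this stretch did not pass. Idi1, the isomerase that interconverts the building blocks, had 10.83, 10.91 and 10.96 in Mn1null, against 10.90, 10.88 and 10.98 in Mn1wt. The arrays interleaved, with a difference of -0.02 (95% interval -0.15 to 0.11; limma), and the other probe set gave 0.04. Mvk, mevalonate kinase, differed by 0.06 (95% interval -0.16 to 0.28) on its brightest probe set, and by -0.02 without Mn1wt replicate 1. Its other probe set passed at 0.26 (adjusted p = 0.0104, limma over 31526 probe sets).

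From squalene onward, 7 of 11 enzymes rose, 1 fell and 3 did not pass, against 23.2% higher and 25.6% lower over all genes. On the brightest probe sets, the largest rises of these enzymes were of Nsdhl, Msmo1 and Cyp51, which act in removing methyl groups of lanosterol. Nsdhl, a sterol dehydrogenase of that step, had 9.94, 9.86 and 9.89 in Mn1null, against 8.88, 9.02 and 9.02 in Mn1wt. The lowest Mn1null array lay well above the highest Mn1wt array, and the 1.90-fold difference (0.92 ± 0.057, SE; adjusted p = 1.93e-05, limma) was larger in size than that of 93.1% of all genes tested. Msmo1, the methylsterol monooxygenase that acts just before it, had 10.66, 10.72 and 10.60 in Mn1null, against 9.87, 9.95 and 9.96 in Mn1wt. The groups were again apart, by 0.74 ± 0.053 (SE; adjusted p = 3.94e-05, limma), and by 0.37 when averaged with a second probe set that lay under the filter. Cyp51, the lanosterol demethylase, had 9.55, 9.49 and 9.57 in Mn1null, against 8.91, 8.93 and 8.95 in Mn1wt. Its difference was 0.60 ± 0.046 (SE; adjusted p = 4.96e-05, limma), and its other probe sets passed as well, at 0.59 and 0.32.

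Hsd17b7, the ketoreductase that works with Nsdhl, had 8.02, 7.87 and 8.01 in Mn1null, against 7.42, 7.51 and 7.90 in Mn1wt. Mn1wt replicate 3 reached into the Mn1null range, and the difference of 0.36 just missed the threshold (adjusted p = 0.0504, limma). Without Mn1wt replicate 3 it was 0.50 (adjusted p = 0.00186, limma). The gene passed under 7 of 10 alternative settings. These include the mean of its probe sets (0.24) and the rule that reads the probe set given next (0.42). Another probe set, without the suffix for shared probes, gave 0.42 (adjusted p = 0.0023, limma over 31526 probe sets), and a further one 0.16 (adjusted p = 0.261).

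At the entry to the sterol branch, Sqle, the squalene epoxidase and a control point of the pathway, had 10.326, 10.220 and 10.258 in Mn1null, against 9.958, 9.997 and 9.970 in Mn1wt. The groups did not overlap, with a difference of 0.29 ± 0.048 (SE; adjusted p = 0.00191, limma). Fdft1, squalene synthase, rose by 0.26 ± 0.076 (SE; adjusted p = 0.0266, limma). That call was lost without Mn1wt replicate 1 (adjusted p = 0.0842), Mn1wt replicate 2 (0.0828), Mn1null replicate 1 (0.0754) or Mn1null replicate 3 (0.0842), and a probe set without shared probes gave 0.40. The mean over its 4 probe sets did not pass, at 0.08 (adjusted p = 0.290), and the dimmer pair gave -0.18 and -0.16, neither past the threshold.

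Lss, lanosterol synthase, showed the widest disagreement between probe sets among the enzymes. The brightest had 8.86, 8.82 and 8.73 in Mn1null, against 8.70, 8.61 and 8.63 in Mn1wt. All 3 Mn1null arrays were higher, yet the difference of 0.15 did not pass (adjusted p = 0.0508, limma). Without Mn1null replicate 3 it was 0.19 and passed (adjusted p = 0.0364, limma). The gene passed under 6 of 10 alternative settings. These include the mean of its probe sets (0.39) and the rule that reads the dimmer probe set described next (0.94). A dimmer probe set, without the suffix for shared probes, had 7.39 ± 0.18 in Mn1null and 6.45 ± 0.20 in Mn1wt (SD, n = 3 each), a difference of 0.94 (adjusted p = 9.20e-04, limma over 31526 probe sets). The third gave 0.07 and did not pass.

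Of the remaining enzymes, Dhcr7, the reductase that finishes cholesterol from dehydrocholesterol, had 8.97, 9.04 and 9.10 in Mn1null, against 8.49, 8.38 and 8.71 in Mn1wt. The Mn1null arrays were all higher, by 0.51 ± 0.089 (SE; adjusted p = 0.00272, limma). Tm7sf2, a sterol reductase, rose by 0.25 ± 0.065 (SE; adjusted p = 0.0171, limma), a call lost without Mn1wt replicate 1 (adjusted p = 0.0543), Mn1wt replicate 2 (0.0517) or Mn1null replicate 1 (0.0590). Sc5d, a sterol desaturase, differed by -0.02 (95% interval -0.14 to 0.10) on its brightest probe set, while a dimmer one passed at 0.28 (adjusted p = 0.0144, limma over 31526 probe sets). Ebp, the sterol isomerase, went the other way, with 10.46, 10.43 and 10.52 in Mn1null, against 10.63, 10.63 and 10.64 in Mn1wt. Every Mn1null array was lower and the difference was -0.16 ± 0.044 (SE; adjusted p = 0.0189, limma). The call was lost without Mn1wt replicate 1 (adjusted p = 0.0545), Mn1wt replicate 2 (0.05001), Mn1null replicate 1 (0.0629) or Mn1null replicate 2 (0.0599), and after quantile normalization (-0.11, adjusted p = 0.0610).

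**Figure D3:**
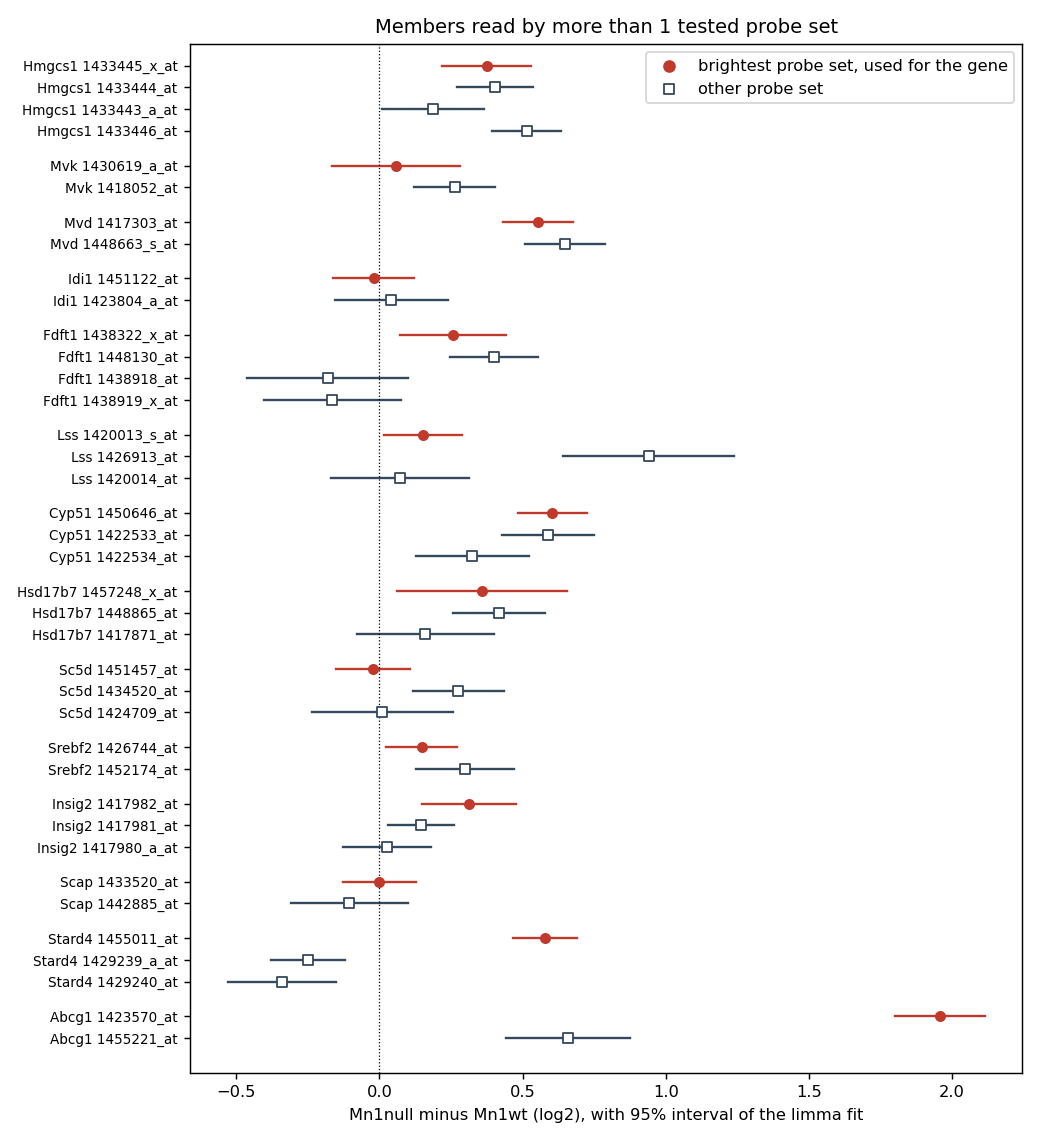
Difference between groups (log2, Mn1null minus Mn1wt) with its 95% interval for every tested probe set of the 14 genes read by more than 1, from a limma fit over 31526 probe sets, with the brightest probe set of each gene filled. The intervals of Stard4 lie on both sides of 0, and for Lss and Abcg1 that of the brightest probe set does not reach the dimmer one at 0.94 (Lss) or 0.66 (Abcg1).

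Of the 5 genes that control SREBP, 3 rose, 0 fell (0 also at limma's unadjusted p under 0.05) and 2 did not pass. Over all genes, 23.2% rose and 25.6% fell. The median size of the differences of these 5 genes was 0.15, against 0.19 over all genes tested. Insig1, which retains SCAP in the endoplasmic reticulum and is itself a target of SREBP2, had 9.54, 9.53 and 9.40 in Mn1null, against 8.57, 8.64 and 8.82 in Mn1wt. The groups were well apart, 1.76-fold (0.82 ± 0.078, SE; adjusted p = 1.48e-04, limma), a size above that of 91.4% of all genes tested. Its relative Insig2 had 8.36, 8.26 and 8.39 in Mn1null, against 8.11, 7.92 and 8.03 in Mn1wt. The Mn1null arrays were again all higher, by 0.31 ± 0.066 (SE; adjusted p = 0.00647, limma). The other probe sets of Insig2 gave 0.15 (adjusted p = 0.0516) and 0.03 (adjusted p = 0.789), neither past the threshold, and the mean of its probe sets gave 0.16.

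The genes of the factors themselves differed little. Srebf2, which encodes SREBP2, had 9.47, 9.39 and 9.43 in Mn1null, against 9.33, 9.25 and 9.27 in Mn1wt. The groups did not overlap and the difference was 0.15 ± 0.047 (SE; adjusted p = 0.0363, limma). The call was lost without Mn1wt replicate 2 (adjusted p = 0.105), Mn1wt replicate 3 (0.0848), Mn1null replicate 1 (0.119) or Mn1null replicate 3 (0.0803), without a filter (0.0565) and with median centring (0.0877), while its other probe set gave 0.30 (adjusted p = 0.0139, limma over 31526 probe sets). Srebf1, which encodes the SREBP1 forms, had 10.03, 10.09 and 10.17 in Mn1null, against 9.97, 9.91 and 10.01 in Mn1wt. Its difference of 0.13 did not pass (adjusted p = 0.0957, limma), but did after quantile normalization (0.17, adjusted p = 0.0388) and with an intensity trend (0.0216). For Scap, the escort, the arrays interleaved at 9.87, 9.89 and 9.94 in Mn1null, against 9.95, 9.85 and 9.91 in Mn1wt. The 95% interval of its difference ran from -0.12 to 0.12.

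Stard4, which encodes a soluble carrier that moves cholesterol between membranes, gave opposite directions on its probe sets. The brightest had 9.97, 9.98 and 10.01 in Mn1null, against 9.40, 9.40 and 9.42 in Mn1wt. This was a tight and complete separation, at 0.58 ± 0.041 (SE; adjusted p = 3.99e-05, limma). The second had 9.23 ± 0.029 in Mn1null and 9.48 ± 0.060 in Mn1wt (SD, n = 3 each), a difference of -0.25 (adjusted p = 0.0092, limma over 31526 probe sets). The third had 8.54 ± 0.090 in Mn1null and 8.88 ± 0.12 in Mn1wt (SD, n = 3 each), a difference of -0.34 (adjusted p = 0.0120). With the mean of the 3 probe sets the difference was -0.0039 (adjusted p = 0.952). The transcript forms that each probe set reads were not analysed here, and no direction is given for the gene as a whole.

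On the efflux side, the exporter gene Abcg1 had the largest difference of the 26 genes. It had 8.72, 8.72 and 8.68 in Mn1null, against 6.82, 6.63 and 6.79 in Mn1wt. All Mn1null arrays stood far above the Mn1wt arrays, and the 3.89-fold difference (1.96 ± 0.062, SE; adjusted p = 1.12e-06, limma) exceeded in size that of 98.3% of all genes tested. A dimmer probe set passed as well, at 0.66 (adjusted p = 0.00105, limma over 31526 probe sets), with 5.19 ± 0.14 in Mn1null and 4.54 ± 0.11 in Mn1wt (SD, n = 3 each).

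Abca1, which loads cholesterol onto lipid-poor apolipoproteins, had low signals of 4.57, 4.87 and 4.83 in Mn1null, against 4.72, 4.51 and 4.46 in Mn1wt. The arrays overlapped near the filter level of 4.07, and the difference of 0.19 did not pass (95% interval -0.05 to 0.43; adjusted p = 0.173, limma). Without Mn1null replicate 1 it was 0.28 and passed (adjusted p = 0.0453). Nr1h3, which encodes LXR alpha, was also low, at 4.99, 5.09 and 5.09 in Mn1null, against 5.15, 5.36 and 5.25 in Mn1wt. The Mn1null arrays were all lower, by a small amount of -0.19 ± 0.066 (SE; adjusted p = 0.0462, limma). That call was lost without Mn1wt replicate 2 (adjusted p = 0.125), Mn1wt replicate 3 (0.0913), Mn1null replicate 1 (0.137), Mn1null replicate 2 (0.0777) or Mn1null replicate 3 (0.0775), without a filter (0.0627) and with an intensity trend (0.159).

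Other genes around the pathway were described from 7 lists, for which the shares over all genes were again 23.2% higher and 25.6% lower. Of 8 tested partners and targets of LXR, 4 rose and 1 fell (median 0.28). Mylip, an LXR-induced ligase that degrades lipoprotein receptors, had 8.92 ± 0.036 in Mn1null and 8.07 ± 0.083 in Mn1wt (SD, n = 3 each), a difference of 0.84 (adjusted p = 2.96e-05, limma). Smpdl3a, a phosphodiesterase known as an LXR target in human macrophages, rose by 0.54 ± 0.065 (SE). Pltp, a phospholipid transfer protein, fell by 0.40 ± 0.118 (SE; adjusted p = 0.0267, limma). It did not pass on its other probe set (-0.22), nor without Mn1wt replicate 1 (adjusted p = 0.0556), Mn1wt replicate 2 (0.0808), Mn1null replicate 1 (0.0798) or Mn1null replicate 3 (0.0872).

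Of 7 tested lipoprotein uptake receptors and partners, 2 rose and 5 fell (median -0.29). Vldlr, the very low density lipoprotein receptor, had 6.02 ± 0.062 in Mn1null and 4.46 ± 0.22 in Mn1wt (SD, n = 3 each), a 2.95-fold difference, and its other probe set gave 1.69. Its brightest probe set carries the suffix for shared probes, and the Mn1wt level lay near the filter of 4.07. With the mean of all probe sets of a gene, 1 gene of this list rose and 4 fell. The chaperone of this receptor family, Lrpap1, rose by 0.31 ± 0.052 (SE). Lrp8, a related receptor, had 8.51 ± 0.039 in Mn1null and 9.31 ± 0.10 in Mn1wt (SD, n = 3 each), a difference of -0.80. Olr1, a scavenger receptor for oxidised lipoprotein, fell by 1.34 ± 0.106 (SE), to a low signal of 4.79 in Mn1null from 6.13 in Mn1wt. For these 4 genes limma's adjusted p was at most 0.00223.

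Of 11 tested genes that store, release or carry sterol, 6 rose and 2 fell (median 0.16). Npc2, which hands cholesterol out of lysosomes, had 12.94 ± 0.015 in Mn1null and 12.17 ± 0.0049 in Mn1wt (SD, n = 3 each), a difference of 0.77. Nceh1, a cholesteryl ester hydrolase, had 8.63 ± 0.078 in Mn1null and 7.20 ± 0.14 in Mn1wt (SD, n = 3 each), a 2.69-fold difference. Stard5, another sterol-binding START protein, fell by 0.61 ± 0.055 (SE), as its other probe sets did (-0.87 and -0.51). Tmem97, a gene that low sterol induces in human cells, fell by 0.19 ± 0.052 (SE; adjusted p = 0.0175, limma), a call lost without Mn1wt replicate 2 (adjusted p = 0.0587), Mn1null replicate 1 (0.0589) or Mn1null replicate 2 (0.0568).

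Of 4 tested enzymes that make or process oxysterols, 2 rose and 1 fell. Hsd3b7, a dehydrogenase that acts on hydroxylated sterols, had 11.17 ± 0.067 in Mn1null and 9.84 ± 0.056 in Mn1wt (SD, n = 3 each), a 2.51-fold difference (adjusted p = 3.52e-06, limma). Cyp39a1, an oxysterol hydroxylase, rose by 0.58 ± 0.134 (SE; adjusted p = 0.00978, limma). Cyp27a1, sterol hydroxylase of mitochondria, fell by 0.40 (adjusted p = 0.0185, limma), with low signals of 4.71 in Mn1null and 5.11 in Mn1wt. Its call was lost without Mn1wt replicate 1 (adjusted p = 0.0580), Mn1wt replicate 2 (0.0605), Mn1null replicate 1 (0.0583) or Mn1null replicate 3 (0.0559). With a filter at the 50th percentile, or with the mean of all probe sets of a gene, 0 of this list fell.

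Of 9 tested genes of the isoprenoid branch off farnesyl diphosphate, 0 rose and 4 fell in the limma fit (median -0.07). Upward, 1 had an unadjusted limma p under 0.05. Pdss2, of coenzyme Q side chain synthesis, fell by 0.44 ± 0.055 (SE) on its brightest probe set and differed by 0.12 on another that did not pass. With the mean of its probe sets it gave -0.09 and did not pass (adjusted p = 0.252), and with such means 1 gene of this list rose and 2 fell. Nus1, of dolichol synthesis, fell by 0.27 ± 0.048 (SE). Of 7 tested genes of SREBP processing and sterol-triggered protein degradation, 2 rose and 0 fell (0 also at limma's unadjusted p under 0.05). The ligase gene Rnf139 rose by 0.19, a call lost without Mn1wt replicate 1 (adjusted p = 0.0516) and when its probe sets were averaged (0.04, adjusted p = 0.456). Erlin2 rose by 0.17 (adjusted p = 0.0429, limma), and its call was lost on leaving out any 1 array other than Mn1null replicate 1 (adjusted p between 0.0507 and 0.124).

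Fatty acid genes that SREBP1 is known to drive were split, with 5 of 12 higher and 5 lower (median 0.02). Acss2, the cytosolic acetyl-CoA synthetase, had 8.16 ± 0.066 in Mn1null and 5.84 ± 0.035 in Mn1wt (SD, n = 3 each), a 4.998-fold difference (2.32 ± 0.052, SE), and its other probe set gave 2.51. Fads2, a fatty acid desaturase, rose by 0.91 ± 0.065 (SE). Acaca, acetyl-CoA carboxylase, fell by 0.53 ± 0.049 (SE), with -0.07 and no call on its other probe set. Me1, malic enzyme, fell by 0.61 ± 0.068 (SE), with -0.28 and no call on its other probe set. For these 4 genes limma's adjusted p was at most 3.02e-04.

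**Figure D4:**
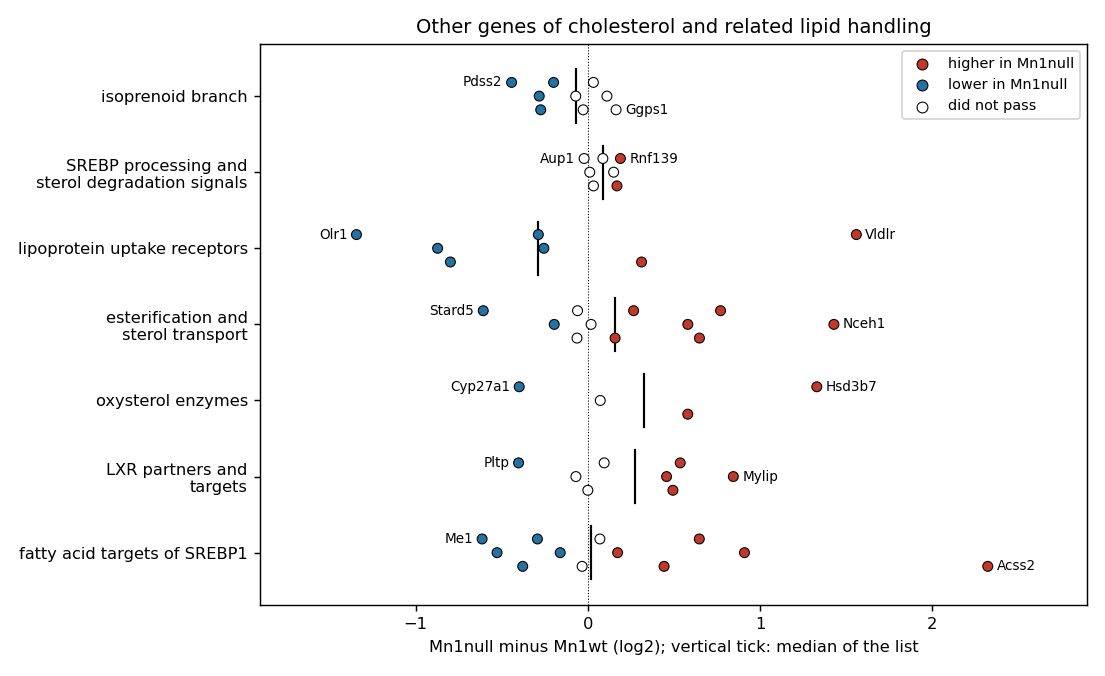
Difference of each tested gene (log2, Mn1null minus Mn1wt) in 7 lists around the pathway, with red for higher, blue for lower and white for genes that did not pass limma's test; vertical ticks are list medians and the extreme genes are named. Lipoprotein receptors spread from Olr1 at -1.34 to Vldlr at 1.56, and fatty acid genes from Me1 at -0.61 to Acss2 at 2.32.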

How the data were processed

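RNA of 3 Mn1null and 3 Mn1wt samples was hybridised to 6 Affymetrix mouse arrays. The deposited values are log2 signals per probe set, made by the authors. RMA is the method that the submitters' processing notes name; it quantile-normalizes arrays and compresses low signals, so fold differences of dim genes are understated. No detection calls were used, and the number of arrays limits the precision.

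Of 45037 probe sets other than controls, 34945 named 1 gene in the platform annotation, 932 named several and 9160 were not listed. Entrez identifiers of 34741 were found in RefSeq (GRCm38.p6), and 0 symbols changed. Each gene was read from its probe set with the highest mean, and genes under the 30th percentile of signal (log2 4.07) were left out, which left 14680. Groups were compared with limma 3.58.1 in R 4.3.3 (lmFit and eBayes, no block, 2-sided, Benjamini-Hochberg over all genes, threshold 0.05). Single probe sets were tested in the same way over 31526 probe sets. The steps were tested on simulated data. Levels of different probe sets were not compared.

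The members and lists were chosen with earlier results of these data known. All 26 measured members are named, and of each other list the 2 genes with the smallest p per direction. The analysis was repeated with other probe set rules and filters, after quantile normalization or median centring, with robust eBayes on an intensity trend, with array weights, with a replicate block, at a threshold of 0.01, and without each array in turn; for the other lists they were added after seeing the data.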

Additional observations from a re-analysis of the deposited data

Results flagged for a closer look

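A dimmer probe set of Lss, which is not the brightest of its gene and so enters no count of genes, was higher in Mn1null by 0.941 (log2), against 0.15 on the brightest. A dimmer probe set of Abcg1, likewise not the brightest, was higher by 0.659, against 1.96 on the brightest. Both passed limma's test over 31526 probe sets and differed from the value used for the gene by more than 0.5. The other probe sets of Stard4, described above, did so as well, at -0.25 and -0.34 against 0.58 on the brightest.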

How the results depend on the processing

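Of the 18 genes called, 11 kept their direction and call under all 10 alternatives to the whole analysis and without any 1 array: Hmgcs1, Mvd, Fdps, Sqle, Cyp51, Msmo1, Nsdhl, Dhcr7, Insig1, Insig2 and Abcg1. Single other probe sets were not among these settings. Those of Insig2 (0.15 and 0.03) and 1 of Hmgcs1 (0.19) did not pass. The number of genes that rose lay between 12 and 19 over the alternatives and between 12 and 16 without any 1 array, against 16. With probe sets that lack the suffixes for shared probes, the median difference was 0.36 for all genes of the pathway and 0.40 for the enzymes, against 0.28 and 0.29. The number that fell was 2, and 1 without a filter, with a filter at the 50th percentile, with quantile normalization or with an intensity trend; it was 0 at a threshold of 0.01, and 0 to 1 without any 1 array. Stard4, whose probe sets were called in opposite directions, gave -0.0039 with their mean, against 0.58 on the brightest. Signs also turned for genes near 0: with the mean of the probe sets Idi1 gave 0.0102 and Sc5d 0.0877, and with quantile normalization Idi1 gave 0.0135, Sc5d 0.0062 and Scap 0.0329. Without any 1 array Mvk ranged from -0.0206 to 0.14, Idi1 from -0.0507 to 0.0133, Sc5d from -0.0540 to 8.33e-05 and Scap from -0.0265 to 0.0236. Other probe sets turned the sign of Idi1 (0.0410), Fdft1 (-0.18 and -0.16), Sc5d (0.28 and 0.0105), Stard4 (-0.25 and -0.34) and Pdss2 (0.12). The cause was not tested. Deviations of arrays with the same replicate number correlated at -0.04, 0.11 and 0.08. Scatter of other origin could hide a pairing, so these values do not settle whether the numbers pair the samples. With the replicate block, 16 genes rose, 2 fell and 12 enzymes rose, and 6943 genes were called in all, against 7170; Hsd17b7 then passed (adjusted p = 0.0427), and Srebf2 (0.0506) and Erlin2 (0.0818) did not. Of 224 recomputed counts of the other lists, 187 stayed within 1.5 times. Signals near the floor, as for Abca1, Nr1h3, Cyp27a1 and Mn1, limit what can be seen.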
